A study of Homo sapiens with 32 samples.

Results

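The rows described here were the named antisense genes of the gene count table, that is, the rows whose symbol ends in -AS and a digit. They were measured by RNA-seq in LNCaP, an androgen-sensitive human prostate cancer cell line. Of the 57773 rows of the table, 878 carried such a name and 557 of these had at least 1 count. The 120 rows with a mean of 10 or more counts over the 32 libraries were kept, and each was read against the coding gene whose symbol stands before -AS, here called its partner. The rows were thus chosen by their mean count over all libraries, which is given as a description only. Just inside the minimum lay ZFAT-AS1 with a mean of 10.2 counts and GLYCTK-AS1 with 10.1, and just outside lay NCBP2-AS1 with 9.94 and RBM12B-AS1 with 9.84.

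The libraries came from 4 lines under 2 treatments, with 4 biological replicates in each of the 8 groups. The parental line was LNCaP without a construct. The other lines each expressed a MACC, a fusion protein that carries the DNA-binding domain of the androgen receptor and the mutant ligand-binding domain ERT2 of the oestrogen receptor, and that is meant to reach androgen response elements (AREs, the DNA motif bound by this receptor) once tamoxifen is added. The neutral MACC (3X) held only a FLAG tag beside these, the repressive MACC added KRAB, a repressor domain, and the activating MACC added VP64, an activator domain. The constructs were delivered by lentivirus on a backbone with a PGK promoter and blasticidin resistance, and the 3 construct lines were selected and kept in blasticidin, so construct, infection and selection cannot be told apart when such a line is set against the parental one. All lines, the parental one included, received 2.5 µM tamoxifen or ethanol vehicle for 48 h.

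The libraries held 454982 to 1164808 counts, with a median of 669922, and the antisense rows took 2.07 to 3.24% of them. ESR1, the gene that supplies ERT2, had 0 to 2 counts in the parental libraries and 66 to 159 in the construct lines. ZNF10, which holds a KRAB domain, had 11 to 20 counts in the repressive line and at most 1 elsewhere. The luminal marker KRT8 had 311 to 5848 counts and KLK3, which encodes prostate-specific antigen, 3 to 59. The fibroblast markers COL1A2, COL3A1 and DCN and the blood markers PTPRC and CD3E were at 0 in every library, and the further fibroblast collagen COL1A1 had 0 to 2 counts. One library, replicate 1 of the neutral line under tamoxifen, had the highest total of all and the lowest share of antisense counts.

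An antisense gene is transcribed from the DNA strand opposite to a neighbouring gene, often across part of its exons. Such transcripts are usually noncoding, and single examples are known to raise, lower or leave unchanged the expression of the gene they face. Because both genes share DNA, reads from their common exons can be given to the right gene only when the strand of each read is kept and used in counting.

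The libraries were made with a kit that keeps strand, and the strand setting of the counting is not given in the sources used here. Some values bear on how an antisense row may be read. ACTB, the gene of cytoplasmic beta-actin, had a mean of 37.1 counts, GAPDH, a glycolytic enzyme, 65.6, and EEF1A1, a translation factor, 67.9. The median antisense row had 55.0. MT-ND6, which the mitochondrial genome encodes on the other strand from its remaining 12 protein genes, averaged 4468 counts, and the median of those 12 was 156. Whether an antisense row held its own transcript or reads of the gene it faces was not tested, so a row's name does not settle which transcript its counts came from. In what follows, a change is that of the row.

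Of the 120 antisense genes, 115 were found in a GENCODE annotation lifted to GRCh37, the build the counts were made on. The exons of 106 overlapped exons of the partner, by a median of 550.5 bases, 2 overlapped the partner gene but none of its exons, and 6 lay apart from it. RAB6C-AS1 was among these 6 by the gene identifier of its row. The annotation also holds another gene of that name, which overlaps exons of RAB6C by 801 bases. The arrangement of HNRNPU-AS1, NICN1-AS1, SGOL1-AS1, ZNF205-AS1 and 1 of the DHRS4-AS1 rows (ENSG00000197775), which were not found, was not measured. The overlap took in protein-coding bases of the partner in 85. Measured against every gene on the opposite strand, 113 had an exon overlap, 5 lay wholly opposite exons, and the median antisense gene had 31.1% of its exon bases opposite an exon. In 24, the gene that overlapped most was another than the partner. A1BG-AS1 was one of these, with 1099 bases opposite ZNF497 and 963 opposite A1BG. Start sites of antisense gene and partner lay within 1 kilobase of each other in 21 of 114 pairs.

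Parts of the shared coding exons of pairs that the results turn on are printed here. Reads of shared bases could be claimed by both rows. Each excerpt holds 80 bases of the longest shared coding stretch, which was 273 bases long in A1BG. Shared exon bases elsewhere are not shown. Each line is read 5′ to 3′ on the strand of the coding partner on GRCh37. The antisense transcript carries the reverse complement. Capitals mark bases that are coding exon of the partner and exon of the antisense gene, and lower case marks the bases just before them.
A1BG (chr19:58863842-58863941, minus strand): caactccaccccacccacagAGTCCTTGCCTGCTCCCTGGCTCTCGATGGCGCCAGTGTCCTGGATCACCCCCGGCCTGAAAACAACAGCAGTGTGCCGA
PRC1 (chr15:91525177-91525276, minus strand): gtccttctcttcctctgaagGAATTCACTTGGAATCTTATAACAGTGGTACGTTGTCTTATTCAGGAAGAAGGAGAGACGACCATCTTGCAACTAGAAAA
OIP5 (chr15:41611899-41611998, minus strand): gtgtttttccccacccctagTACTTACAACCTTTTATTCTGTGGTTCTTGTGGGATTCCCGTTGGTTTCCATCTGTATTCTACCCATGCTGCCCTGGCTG
TMPO (chr12:98909749-98909848, plus strand): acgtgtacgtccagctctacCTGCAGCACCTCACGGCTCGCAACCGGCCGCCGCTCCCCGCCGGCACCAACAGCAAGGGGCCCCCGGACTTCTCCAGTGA
PTPRG (chr3:62278076-62278175, plus strand): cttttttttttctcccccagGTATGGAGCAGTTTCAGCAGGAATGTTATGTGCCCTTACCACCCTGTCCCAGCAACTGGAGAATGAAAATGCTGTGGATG
ACTA2 (chr10:90699376-90699475, minus strand): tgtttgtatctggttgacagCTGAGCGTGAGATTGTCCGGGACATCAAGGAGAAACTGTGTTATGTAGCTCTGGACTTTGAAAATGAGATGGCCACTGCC
SH3BP5 (chr3:15300478-15300577, minus strand): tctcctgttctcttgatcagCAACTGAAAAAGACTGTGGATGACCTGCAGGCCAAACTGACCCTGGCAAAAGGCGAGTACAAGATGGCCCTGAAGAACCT
FAM13A (chr4:89649731-89649830, minus strand): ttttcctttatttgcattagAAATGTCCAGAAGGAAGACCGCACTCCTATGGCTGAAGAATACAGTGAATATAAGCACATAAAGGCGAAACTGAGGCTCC

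For A1BG-AS1 the same stretch read on its own strand shows the reverse complement that its transcript would carry, with the shared bases again in capitals.
A1BG-AS1 (chr19:58863842-58863941, plus strand): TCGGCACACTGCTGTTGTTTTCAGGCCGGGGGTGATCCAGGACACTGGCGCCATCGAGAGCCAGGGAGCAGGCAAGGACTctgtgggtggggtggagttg

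As a description, most of the kept antisense rows were higher than the rows of their coding partners; the minimum of 10 counts was set on the antisense row and not on the partner, which favours the antisense side in every count and median here. A partner row existed for 119 of them, with 116 different partners, since ZNF32, DHRS4 and WDFY3 each served 2, and HOXA-AS3 had none. The antisense row had the higher mean count in 111 pairs and was higher in all 32 libraries in 94. The median of the mean counts was 55.0 over the antisense rows and 2.78 over the partners, and the median ratio within a pair was 25.5. Partners had a mean under 10 counts in 90 pairs and under 1 count in 40. Per kilobase of exon, which allows levels of different genes to be compared, the antisense row was higher in 104 of the 114 pairs with both lengths, with medians of 20.6 and 0.383 counts per kilobase.

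**Figure D1:**
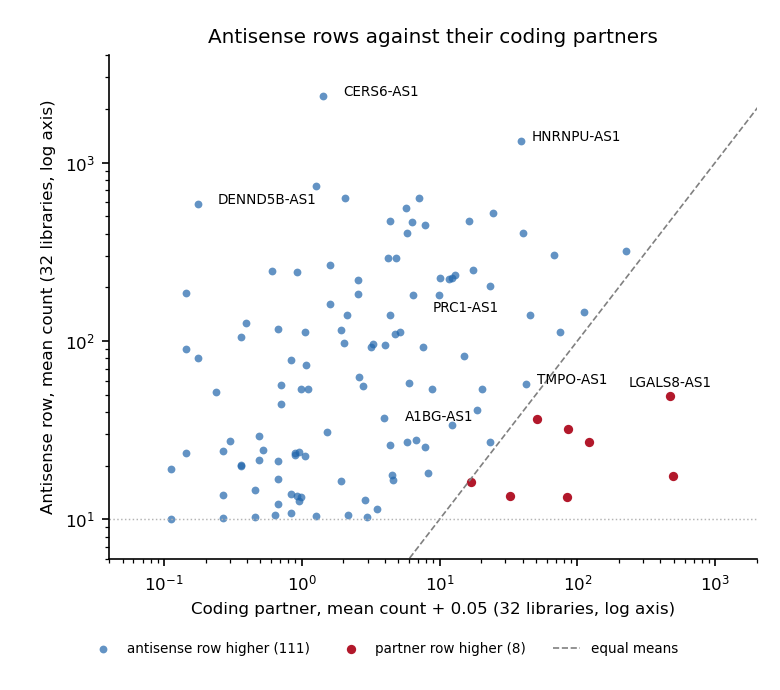
Mean count over 32 libraries of 119 antisense rows (vertical, log axis) against that of the coding partner plus 0.05 (horizontal, log axis), 1 point per pair, with the dashed line at equal means and the dotted line at the minimum of 10 counts. Blue points mark the 111 pairs with the higher antisense row and red points the 8 with the higher partner.

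A few rows held much of the signal. CERS6-AS1, opposite the gene of ceramide synthase 6, had a mean of 2374 counts, 12.8% of all antisense counts, while CERS6 itself had 1.38. The next 5 by mean level were HNRNPU-AS1, PRMT5-AS1, ATP6V0E2-AS1, EAF1-AS1 and DENND5B-AS1, and the 6 together held 33.9%. Their partners encode an RNA-binding protein of the nuclear matrix, an arginine methyltransferase, a subunit of the vacuolar proton pump, an ELL-associated elongation factor and an exchange factor for Rab proteins. DENND5B was listed at 0 in most libraries, whereas DENND5B-AS1 had normalized counts of 628 to 1637. In contrast, the partner row was the higher one for LGALS8, ZBTB11, NDUFB2, MMP24, RAB6C, H1FX, MBNL1 and GRTP1, and for the first 5 in all 32 libraries. The widest of these gaps were at MMP24, a membrane matrix metalloproteinase, with means of 494 against 17.4 for MMP24-AS1, and at LGALS8, the sugar-binding protein galectin-8, with 470 against 49.4. The exons of LGALS8 face 2095 bases of a further gene on the opposite strand, HEATR1, which acts in ribosome production.

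Over the summed counts of the pairs, the antisense rows took a mean of 86.4 to 89.4% in the 8 groups. Parental libraries under vehicle had 89.4% ± 0.635 (SD, n = 4). In the activating line the share was 87.8% ± 0.277 under vehicle and 86.4% ± 0.663 under tamoxifen, with no overlap between the treatments. These sums are led by the highest rows. The mean of the median share over the pairs went the other way in the same libraries, from 96.7% ± 0.706 under vehicle to 97.9% ± 0.455 under tamoxifen. On that measure the treatments overlapped, with vehicle replicate 3 at 97.3% and tamoxifen replicate 3 at 97.2%. The share per kilobase of exon, 92.8% ± 0.208 and 92.2% ± 0.406, also overlapped between the treatments. Without CERS6-AS1 and CERS6 the activating values were 86.5% ± 0.257 and 82.3% ± 0.757. In the repressive line the share was 88.0% ± 0.851 under vehicle and 89.1% ± 0.683 under tamoxifen, and the treatments overlapped.

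**Figure D2:**
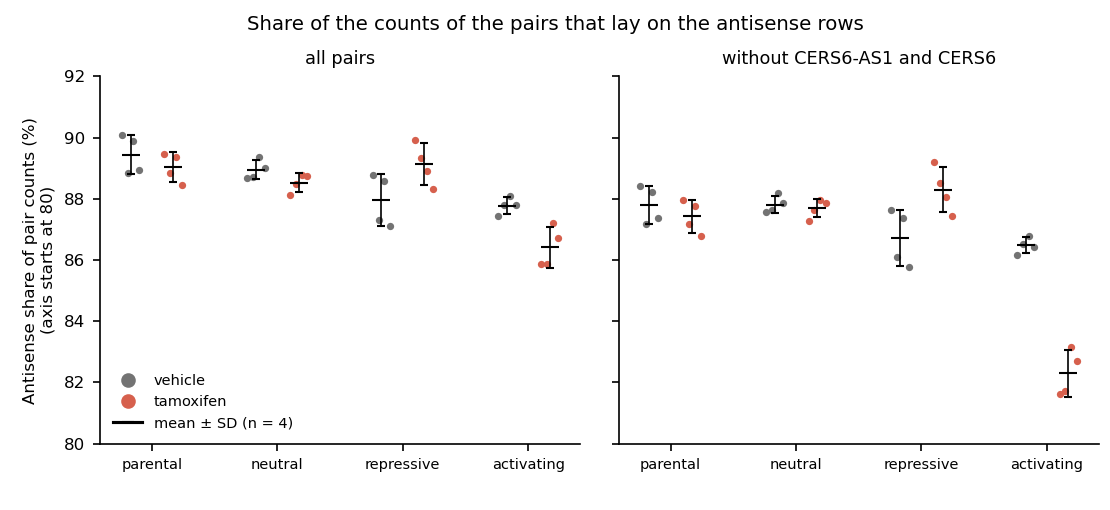
Share of the summed counts of all pairs that lay on the antisense rows, in percent (the axis starts at 80), for each library by line and treatment, with all pairs (left) and without CERS6-AS1 and CERS6 (right). Points are libraries and bars are mean ± SD of 4, and the 4 activating libraries under tamoxifen are the lowest once CERS6-AS1 is left out.

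To see how the antisense rows responded when each construct was induced, tamoxifen was set against vehicle within each line. All 120 rows passed the filter on low counts, and 98 had a mean of 10 or more counts in every one of the 8 groups. Values per library are normalized counts, that is, CPM scaled by TMM factors of the 32 libraries, and differences are log2 fold changes ± SE with adjusted p from edgeR. In the parental line 0 of the 120 passed an adjusted p of 0.05, where 0% of all 3985 tested genes did, 7 had an unadjusted p under 0.05, and DESeq2 also called 0. In the neutral line 10 passed (5 higher, 5 lower), against 4.72% of all tested genes (2.61% higher, 2.11% lower). In the repressive line 24 passed (15 higher, 9 lower), against 17.8% of all tested genes (7.8% higher, 9.99% lower), and in the activating line 62 passed (33 higher, 29 lower), against 44.8% (22% higher, 22.8% lower). As shares of the 120 these counts were 8.33, 20 and 51.7%, beside 4.72, 17.8 and 44.8% of all tested genes in the same lines. The median change over the 120 was -0.06 for the activating and 0.07 for the repressive line, where all tested genes had -0.09 and 0.00. Because these were bulk cultures, fewer cells of a kind and less RNA per cell cannot be told apart.

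The repressive count rests on the test: DESeq2 called 14, and edgeR without the filter on low counts also called 14. The same settings called 49 and 51 rows in the activating line, and 7 and 7 in the neutral line. The neutral count was 6 without vehicle replicate 4.

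**Figure D3:**
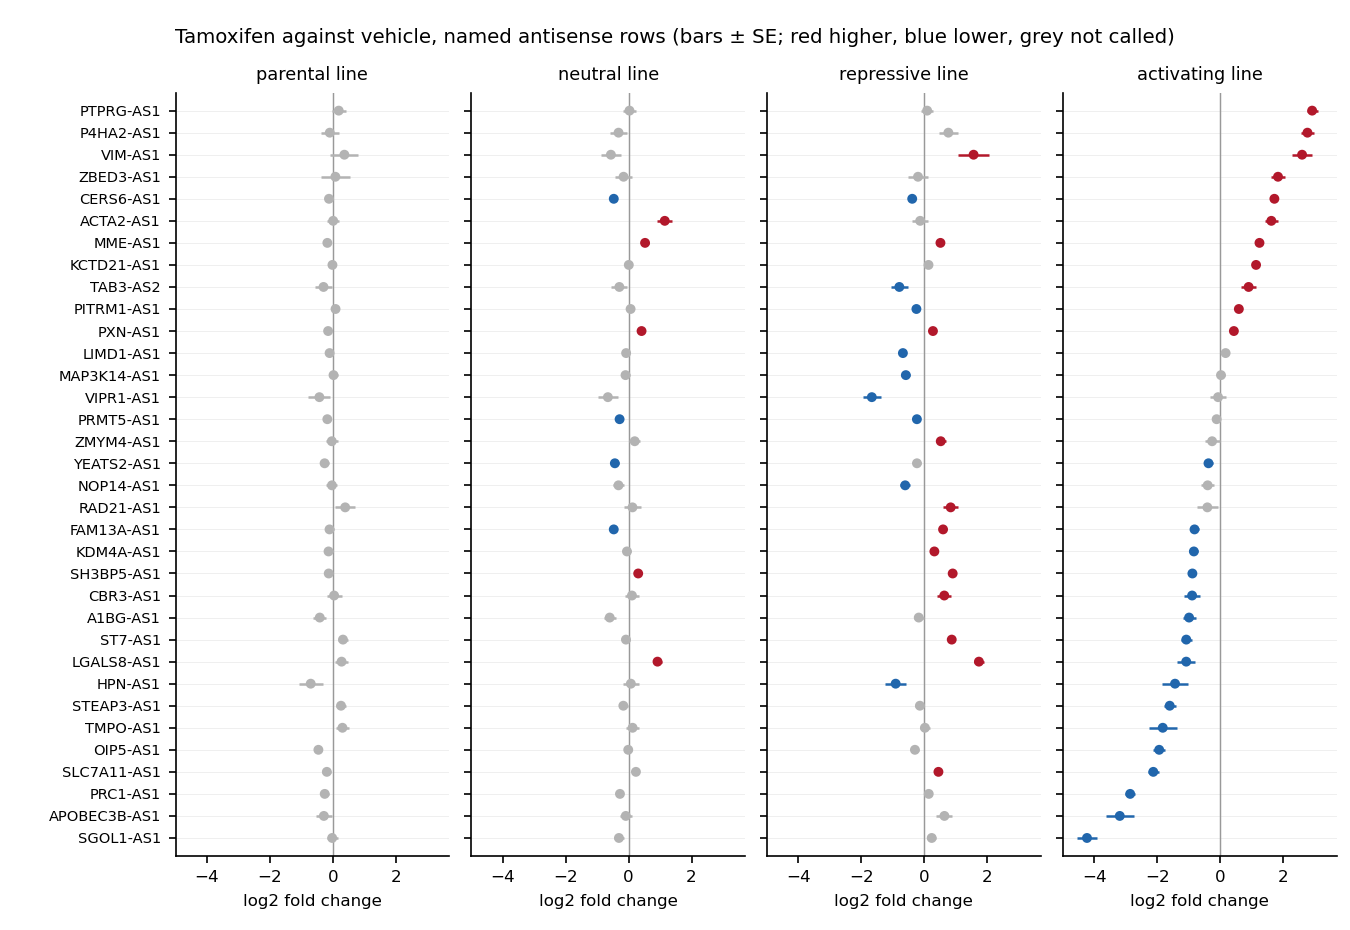
Log2 fold change ± SE of tamoxifen against vehicle (n = 4 libraries per group) for 34 named antisense rows in the 4 lines, ordered by the activating line, with red for rows called higher, blue for rows called lower and grey for rows not called by edgeR. No row is coloured in the parental line, and SGOL1-AS1 and PTPRG-AS1 mark the ends in the activating line.

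The activating line held the largest rises among the 120 rows, at PTPRG-AS1, P4HA2-AS1 and VIM-AS1. PTPRG-AS1, opposite a receptor tyrosine phosphatase, had 42.2, 37.3, 58.4 and 58.2 normalized counts under vehicle and 318, 300, 437 and 295 under tamoxifen, a rise of 2.93 ± 0.17 (adjusted p = 1.57e-11). Every induced library lay far above every vehicle library of its line, and above all libraries of the other lines, which ran from 41.4 to 80.3. PTPRG itself was too low to be tested, at 2.66 to 6.46 under vehicle and 3.68 to 18.6 under tamoxifen. P4HA2-AS1, opposite a subunit of the collagen prolyl hydroxylase, had 18.0, 17.3, 20.5 and 29.1 under vehicle and 169, 116, 122 and 121 under tamoxifen, a rise of 2.78 ± 0.21 (adjusted p = 1.58e-10). VIM-AS1, opposite the intermediate filament gene of vimentin, had 16.9, 10.7, 15.8 and 4.85 under vehicle and 64.3, 107, 43.4 and 66.6 under tamoxifen, a rise of 2.61 ± 0.31 (adjusted p = 6.51e-07). The groups were apart in both rows, and P4HA2 and VIM had at most 5.51 normalized counts in any library.

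CERS6-AS1 carried the largest change in absolute level. It had 2592, 2772, 3026 and 3012 normalized counts under vehicle and 8275, 8173, 8873 and 9242 under tamoxifen, a rise of 1.73 ± 0.07 (adjusted p = 7.5e-16). Its induced level exceeded that of every other library of the series, and CERS6 stayed at 0 to 2.07 in the same induced libraries. ZBED3-AS1, opposite an axin-binding zinc finger gene, rose by 1.84 ± 0.23, ACTA2-AS1, opposite smooth muscle actin, by 1.63 ± 0.21, MME-AS1, opposite the membrane peptidase neprilysin, by 1.25 ± 0.12, and KCTD21-AS1 by 1.14 ± 0.09 (adjusted p of 5.88e-07, 1.16e-06, 4.71e-09 and 2.98e-10). Of these partners, MME also rose, by 1.49 ± 0.30 (adjusted p = 0.000297), with 13.7, 9.33, 17.4 and 9.69 under vehicle and 40.4, 29.4, 22.8 and 37.8 under tamoxifen. Its activating response did not differ by a called amount from the neutral one, at 0.41 ± 0.44 (adjusted p = 0.519). From the repressive response it differed by 1.85 ± 0.51 (adjusted p = 0.00389). KCTD21 had 11.6 to 16 and 7.35 to 12.9, a difference of -0.19 ± 0.38 that did not pass (adjusted p = 0.702).

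The largest falls in the activating line were at SGOL1-AS1, APOBEC3B-AS1 and PRC1-AS1. SGOL1-AS1, named for the gene of shugoshin, which guards centromeric cohesion, had 69.7, 83.9, 82.1 and 87.3 normalized counts under vehicle and 3.67, 5.51, 2.07 and 3.60 under tamoxifen, and fell by 4.23 ± 0.31 (adjusted p = 6.09e-11). The induced values rest on 1 to 3 counts per library, 8 in all against 235 under vehicle, and the vehicle level was 26.4 times the induced one (exact 95% interval 13.2 to 61.9, counting error only). SGOL1 had at most 1.71 normalized counts in any library. PRC1-AS1, opposite the gene of a microtubule bundler of cytokinesis, had 278, 289, 328 and 346 under vehicle and 34.9, 45.9, 41.4 and 34.2 under tamoxifen, and fell by 2.86 ± 0.15 (adjusted p = 2.17e-13). In the other 3 lines PRC1-AS1 lay between 203 and 373 under both treatments, so the induced activating libraries stood apart from all others. PRC1 also fell by 1.59 ± 0.42 (adjusted p = 0.00327), from 15.8, 16, 15.8 and 29.1 to 5.51, 5.51, 4.14 and 7.20. The activating response of PRC1 did not differ by a called amount from the neutral or the repressive one. The differences were -1.18 ± 0.57 and -0.82 ± 0.55 (adjusted p of 0.117 and 0.262).

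TMPO-AS1 lies opposite the gene of lamina-associated polypeptide 2, and both rows fell. TMPO-AS1 had 127, 77.3, 63.2 and 37.2 under vehicle and 12.9, 29.4, 26.9 and 12.6 under tamoxifen, and fell by 1.82 ± 0.44 (adjusted p = 0.00691). The vehicle libraries spread widely, but the lowest of them was still above the highest induced one. TMPO had 83.4, 77.3, 61.6 and 53.3 under vehicle and 1.84, 5.51, 6.21 and 3.60 under tamoxifen, and fell by 3.86 ± 0.34 (adjusted p = 1.62e-09). The induced values again rest on few reads, 9 counts against 209, a ratio of 20.9 (exact 95% interval 10.8 to 46.3).

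OIP5-AS1 and its partner moved in opposite directions. OIP5-AS1, a long noncoding RNA also known as Cyrano that lies opposite a centromere gene, had 141, 120, 163 and 153 under vehicle and 23.9, 34.9, 47.6 and 32.4 under tamoxifen, and fell by 1.93 ± 0.20 (adjusted p = 2.01e-08). OIP5 had 6.34, 6.66, 11.1 and 14.5 under vehicle and 14.7, 16.5, 14.5 and 27.0 under tamoxifen, a rise of 1.09 ± 0.38 (adjusted p = 0.0228). The OIP5 groups overlapped, and its call was lost with DESeq2, without the filter and without any 1 of 3 libraries, namely vehicle replicates 1 and 2 and tamoxifen replicate 4 (adjusted p up to 0.118 in edgeR). The treatments did not overlap in OIP5-AS1, and its call held in all of those settings.

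Further rows fell in the activating line by more than 1 on the log2 scale. SLC7A11-AS1, opposite the cystine-glutamate exchanger, had 202, 218, 261 and 294 under vehicle and 45.9, 51.5, 64.1 and 43.2 under tamoxifen, and fell by 2.12 ± 0.17 (adjusted p = 2.93e-10). APOBEC3B-AS1, opposite a cytidine deaminase, had 35.9, 32, 28.4 and 40.4 under vehicle and 0, 7.35, 2.07 and 3.60 under tamoxifen, and fell by 3.19 ± 0.45 (adjusted p = 3.01e-06), a size that rests on 0 to 4 counts per induced library. STEAP3-AS1, opposite an iron reductase, fell by 1.60 ± 0.19 (adjusted p = 3.63e-07), and HPN-AS1, opposite the membrane protease hepsin, by 1.43 ± 0.42 (adjusted p = 0.00822). For each of these rows the treatments did not overlap. The coding rows SLC7A11, APOBEC3B, STEAP3 and HPN had at most 8.43 normalized counts in any library and were not tested.

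A1BG-AS1 lies opposite the gene of a plasma glycoprotein of the immunoglobulin superfamily. In the activating line it had 75, 69.3, 67.9 and 66.2 under vehicle and 38.6, 33.1, 22.8 and 34.2 under tamoxifen, and fell by 0.98 ± 0.20 (adjusted p = 0.000372). A1BG had 32.7, 38.6, 23.7 and 27.5 under vehicle and 53.3, 40.4, 47.6 and 55.8 under tamoxifen, a rise of 0.79 ± 0.22 (adjusted p = 0.00596). The order of both rows thus turned, from A1BG-AS1 above A1BG in all 4 vehicle libraries to A1BG above A1BG-AS1 in all 4 induced ones. In the other lines the differences of A1BG-AS1 did not pass, at -0.42 ± 0.21 in the parental, -0.60 ± 0.19 in the neutral and -0.18 ± 0.17 in the repressive line (adjusted p of 0.657, 0.0789 and 0.511). The activating and neutral responses of A1BG-AS1 differed by -0.41 ± 0.28, which did not pass (adjusted p = 0.272), whereas those of A1BG differed by 0.90 ± 0.31 (adjusted p = 0.0233). That call of A1BG was lost without the filter and without activating vehicle replicate 3. The activating and repressive responses differed by -0.81 ± 0.25 for A1BG-AS1 and 1.08 ± 0.33 for A1BG (adjusted p of 0.0109 and 0.0103). Both of these calls were lost without the filter (adjusted p of 0.0989 and 0.0647). Under vehicle, A1BG was higher than in the parental line by 1.08 ± 0.31 in the neutral, 1.30 ± 0.30 in the repressive and 1.27 ± 0.31 in the activating line (adjusted p of 0.0223, 0.00648 and 0.0185), and A1BG-AS1 was not called in any of them. The A1BG calls in the neutral and the activating line were each lost without several single libraries and with the replicate number as a block. The neutral call was also lost with DESeq2 and without the filter. Over the settings, adjusted p reached 0.0922 in the neutral and 0.0686 in the activating line.

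**Figure D4:**
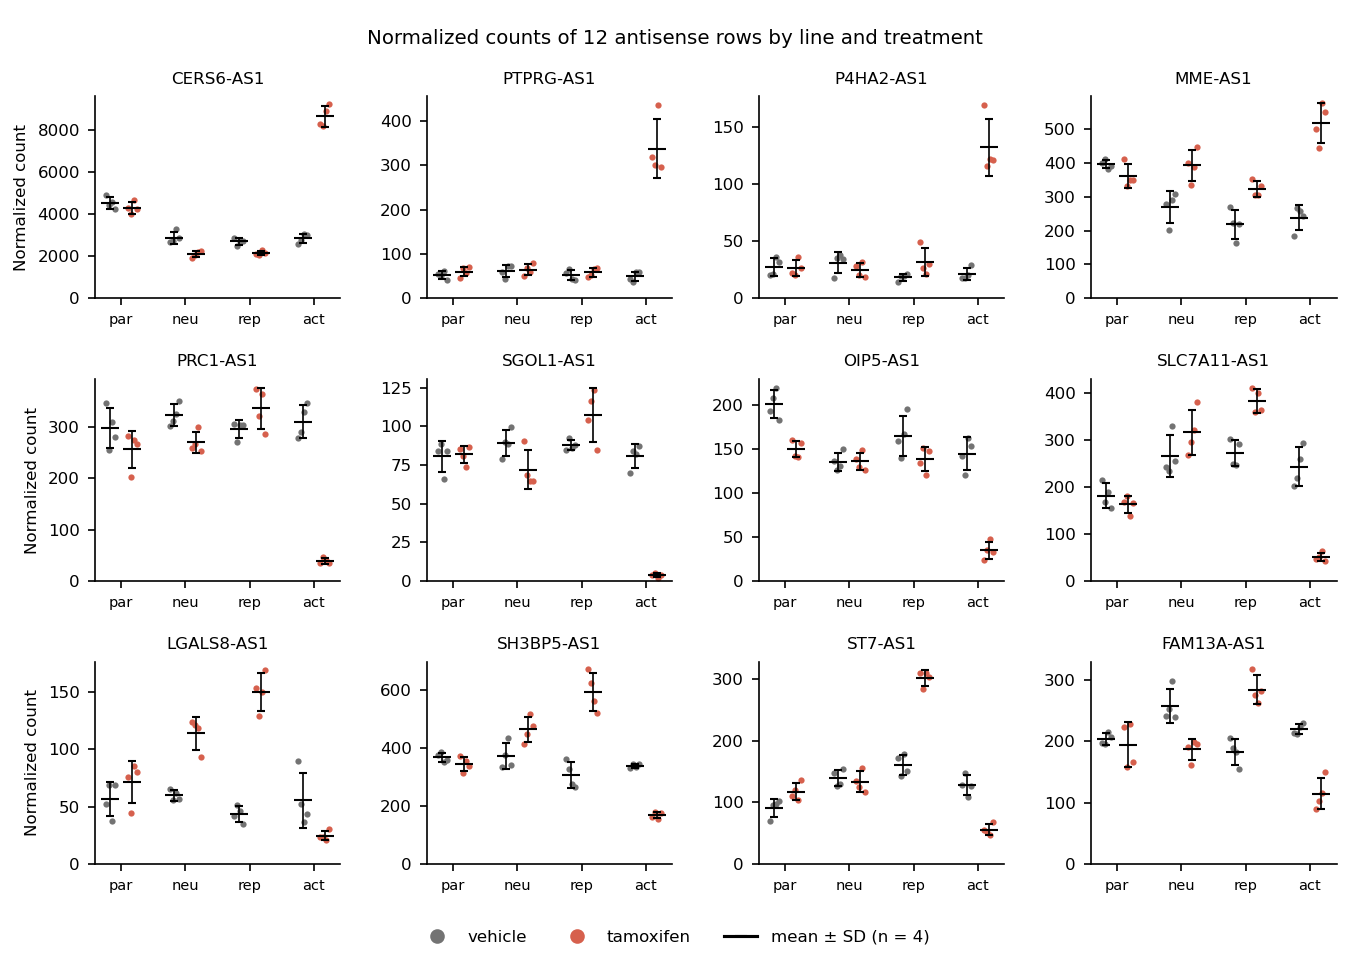
Normalized counts of 12 antisense rows (vertical, starting at 0) in every library of the parental (par), neutral (neu), repressive (rep) and activating (act) line, grey for vehicle and red for tamoxifen, with bars for mean ± SD of 4. The top row shows rises and the middle row falls in the activating line, and the bottom row shows 4 rows that were called lower in the activating and higher in the repressive line.

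In the repressive line the largest rise was at LGALS8-AS1. LGALS8-AS1 had 41.7, 51.8, 45.9 and 34.8 under vehicle and 153, 129, 150 and 169 under tamoxifen, a rise of 1.73 ± 0.16 (adjusted p = 1.92e-09), with all induced libraries above 120. In the neutral line it had 65.4, 55.9, 61.7 and 56.4 under vehicle and 123, 121, 118 and 92.9 under tamoxifen, a rise of 0.92 ± 0.15 (adjusted p = 0.000846). In the activating line it fell by 1.07 ± 0.29 (adjusted p = 0.00462). LGALS8 itself was not called in any line, with differences of -0.19 ± 0.17, -0.03 ± 0.08 and 0.02 ± 0.09 in the repressive, neutral and activating lines (adjusted p of 0.517, 0.906 and 0.874).

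SH3BP5-AS1 and FAM13A-AS1 rose in the repressive line while their partners fell. SH3BP5-AS1 had 363, 326, 277 and 264 under vehicle and 672, 623, 562 and 521 under tamoxifen, a rise of 0.90 ± 0.10 (adjusted p = 7.27e-08). SH3BP5, which encodes a mitochondrial binder of the kinase JNK, fell by 0.90 ± 0.29 (adjusted p = 0.0271), from 32, 32.5, 17.2 and 30.6 to 12.9, 19.1, 15.3 and 16.6. The partner's groups overlapped, and its call was lost with DESeq2, without the filter and without each of 6 libraries in turn (vehicle replicates 1, 2 and 4, tamoxifen replicates 1, 3 and 4), at an adjusted p of up to 0.142. FAM13A-AS1 had 205, 189, 182 and 154 under vehicle and 318, 275, 263 and 282 under tamoxifen, a rise of 0.60 ± 0.11 (adjusted p = 0.000112). FAM13A had 120, 81.9, 82.3 and 84.8 under vehicle and 23.2, 12.2, 27.5 and 18.1 under tamoxifen, and fell by 2.21 ± 0.22 (adjusted p = 7.97e-09). In both antisense rows and in FAM13A the treatments were apart.

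Further rises in the repressive line were at ST7-AS1, RAD21-AS1, ZMYM4-AS1, MME-AS1 and VIM-AS1. ST7-AS1 had 171, 143, 178 and 150 under vehicle and 310, 284, 310 and 303 under tamoxifen, a rise of 0.87 ± 0.10 (adjusted p = 2.34e-07). RAD21-AS1, opposite a cohesin subunit, rose by 0.84 ± 0.23, ZMYM4-AS1 by 0.52 ± 0.16 and MME-AS1 by 0.51 ± 0.11 (adjusted p of 0.0106, 0.0236 and 0.000703). VIM-AS1 had 1.39, 3.61, 5.74 and 9.73 under vehicle and 11.6, 12.2, 12.2 and 27.1 under tamoxifen, a rise of 1.56 ± 0.49 (adjusted p = 0.0238). The VIM-AS1 call was lost with DESeq2 and when either of the first 2 vehicle replicates or tamoxifen replicate 4 was left out, and those of RAD21-AS1 and ZMYM4-AS1 were lost with DESeq2 and without the filter. The ZMYM4-AS1 call was also lost when any 1 of 4 repressive libraries was left out, namely replicates 2 and 3 of vehicle and 2 and 4 of tamoxifen.

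The rows that fell in the repressive line were led by VIPR1-AS1, opposite the receptor of vasoactive intestinal peptide. It had 51.5, 40.9, 32.5 and 32 under vehicle and 15.4, 13.9, 6.11 and 15.1 under tamoxifen, and fell by 1.67 ± 0.29 (adjusted p = 0.000101). LIMD1-AS1, opposite a LIM domain scaffold gene, had 779, 713, 672 and 726 under vehicle and 423, 468, 483 and 493 under tamoxifen, and fell by 0.68 ± 0.07 (adjusted p = 3.4e-08). LIMD1 differed there by -0.03 ± 0.26 (adjusted p = 0.959), while in the activating line LIMD1 fell by 2.0 ± 0.39 (adjusted p = 0.000205) and LIMD1-AS1 differed by 0.18 ± 0.08, which did not pass (adjusted p = 0.0825). NOP14-AS1, opposite a ribosome assembly gene, fell by 0.61 ± 0.16, MAP3K14-AS1, opposite the kinase NIK, by 0.59 ± 0.14, and CERS6-AS1 by 0.38 ± 0.06 (adjusted p of 0.00695, 0.00322 and 1.23e-05).

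In the neutral line, where the construct holds no effector domain, ACTA2-AS1 had 17.3, 19.5, 12.1 and 23.5 under vehicle and 39.3, 35.8, 42 and 47.2 under tamoxifen, a rise of 1.15 ± 0.24 (adjusted p = 0.00655). The induced neutral libraries remained below the vehicle libraries of the parental line, at 49.9 to 67.0. MME-AS1 rose by 0.52 ± 0.12 and PXN-AS1, opposite the focal adhesion gene of paxillin, by 0.41 ± 0.07 (adjusted p of 0.0145 and 0.000637). FAM13A-AS1 fell by 0.47 ± 0.10, CERS6-AS1 by 0.47 ± 0.06, YEATS2-AS1 by 0.44 ± 0.12 and PRMT5-AS1 by 0.29 ± 0.06 (adjusted p of 0.00816, 6.18e-05, 0.0407 and 0.00655). The YEATS2-AS1 call was lost with DESeq2, without the filter and without any neutral library but tamoxifen replicate 4. MME-AS1 lost its call without vehicle replicate 3 (adjusted p = 0.0508), and PRMT5-AS1 without vehicle replicate 4 and without the filter.

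Of the 16 rows called in both the activating and the repressive line, 10 moved in opposite directions and 6 in the same one. Over all tested genes 11.5% were called in both lines, 5.47% in opposite directions and 6.02% in the same one, and the shares of the 120 rows were 13.3, 8.33 and 5%. CERS6-AS1, PITRM1-AS1 and TAB3-AS2 were higher in the activating and lower in the repressive line, and SLC7A11-AS1, FAM13A-AS1, SH3BP5-AS1, ST7-AS1, LGALS8-AS1, KDM4A-AS1 and CBR3-AS1 the reverse. HNRNPU-AS1, PXN-AS1, MME-AS1, RNF185-AS1 and VIM-AS1 rose in both, and HPN-AS1 fell in both. The repressive calls of PITRM1-AS1, KDM4A-AS1, CBR3-AS1, TAB3-AS2 and HPN-AS1 had overlapping groups and were lost with DESeq2, without the filter and without several single libraries, with the highest adjusted p between 0.177 and 0.243. PXN-AS1 lost its repressive call without the filter (adjusted p = 0.0663).

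Whether the responses themselves differed was tested by comparing the tamoxifen effects of 2 lines in 1 model. Between activating and repressive lines 49 of the 120 rows passed (27 higher, 22 lower in the activating line), against 35.9% of all tested genes (18.1% higher, 17.8% lower). All 10 rows with opposite calls were among them, from -2.81 ± 0.32 at LGALS8-AS1 (adjusted p = 3.12e-09) to 2.11 ± 0.09 at CERS6-AS1 (adjusted p = 8.67e-21). Those 10 were chosen by opposite calls in the same libraries. Their passing was thus nearly fixed by the choice and is no separate support. Between activating and neutral lines 44 passed (23 higher, 21 lower), against 33.4% (16% higher, 17.3% lower), with PTPRG-AS1 at 2.87 ± 0.27 and PRC1-AS1 at -2.61 ± 0.16 (adjusted p of 2.91e-09 and 1.11e-13). ACTA2-AS1, which rose in both of these lines, did not differ by a called amount between them, at 0.45 ± 0.33 (adjusted p = 0.324).

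Between repressive and neutral lines 7 of the 120 rows passed (5 higher, 2 lower), against 3.39% of all tested genes (1.53% higher, 1.86% lower). VIM-AS1 differed by 2.13 ± 0.58, FAM13A-AS1 by 1.06 ± 0.15, ST7-AS1 by 0.95 ± 0.16, LGALS8-AS1 by 0.81 ± 0.22 and SH3BP5-AS1 by 0.59 ± 0.14. ACTA2-AS1 differed by -1.28 ± 0.35 and LIMD1-AS1 by -0.60 ± 0.11. The adjusted p values were 0.0313, 8.35e-06, 0.000237, 0.0299, 0.00922, 0.0347 and 0.000998 in that order. The calls of VIM-AS1, LGALS8-AS1 and ACTA2-AS1 were each lost without several single libraries of either line. Those of VIM-AS1 and ACTA2-AS1 were also lost with DESeq2, and those of LGALS8-AS1 and ACTA2-AS1 without the filter. LGALS8-AS1 further lost its call in 1 fit of all 32 libraries. Over the settings, adjusted p reached 0.124 for VIM-AS1, 0.0957 for LGALS8-AS1 and 0.144 for ACTA2-AS1. The count fell to 4 without neutral vehicle replicate 3. The fall of CERS6-AS1 in both lines did not differ by a called amount, at 0.08 ± 0.08 (adjusted p = 0.764).

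To ask whether the antisense row followed its partner, the 40 pairs with both rows tested were set side by side. Only 39 of the 116 partners passed the filter on low counts, so the other 77 gave no test. For the activating line 22 antisense rows and 21 partner rows of these pairs were called (DHRS4 counts for both of its pairs), both rows in 12 pairs, of which 6 moved the same way and 6 opposite ways. The same way went PRC1, TMPO, MME, PTOV1, ZNF337 and 1 of the DHRS4 pairs (the DHRS4-AS1 row ENSG00000197775), and opposite ways went A1BG, OIP5, SH3BP5, PXN, MCM3AP and ZSWIM8, with the calls of OIP5 and PXN lost with DESeq2, without the filter and without several single libraries. In the repressive line 9 antisense and 9 partner rows were called and both in 3 pairs, SH3BP5, FAM13A and PXN, each with the antisense row higher and the partner lower, and the partner calls of SH3BP5 and PXN were lost under DESeq2 (adjusted p of up to 0.142 and 0.133 in edgeR alternatives). In the neutral line 6 antisense and 2 partner rows were called and no pair had both.

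Across the 40 pairs the 2 sets of log2 changes had a Pearson correlation of 0.237 and a Spearman correlation of 0.0769 for the activating line. The same values were -0.212 and -0.0297 for the repressive, 0.289 and 0.279 for the neutral and -0.0279 and -0.0881 for the parental line. These describe pairs measured in the same libraries, many of them at low counts, and the pairs are not independent replicates.

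**Figure D5:**
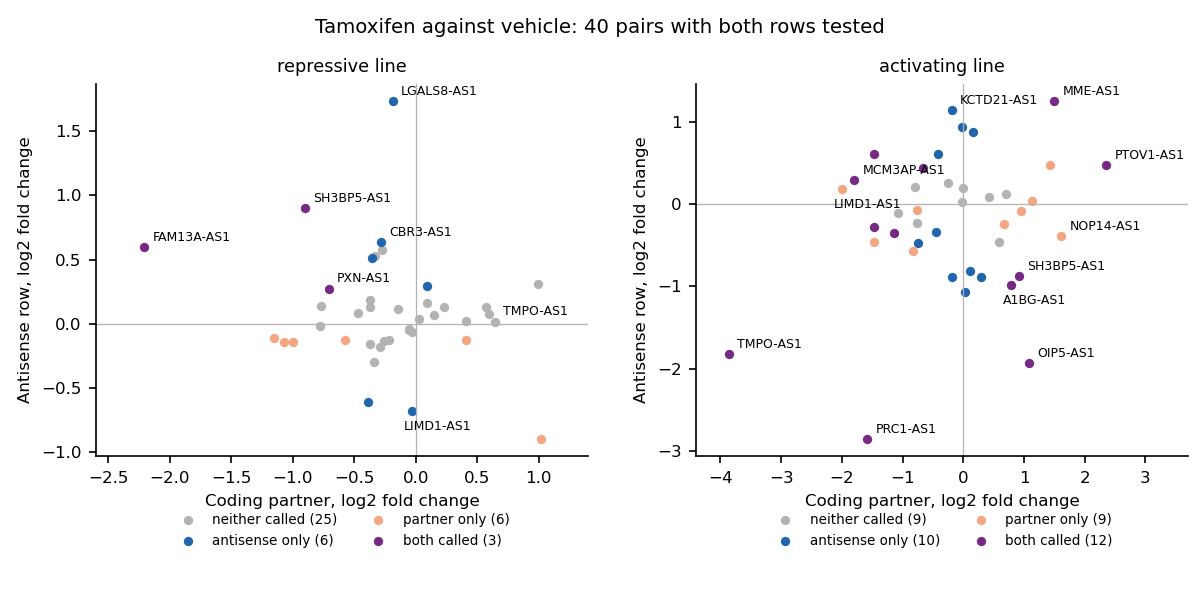
Log2 fold change of the antisense row (vertical) against that of its coding partner (horizontal), tamoxifen against vehicle, for the 40 pairs with both rows tested in the repressive (left) and activating (right) line. Colour marks which row edgeR called, and the pairs with both called number 3 on the left, all with a higher antisense row and a lower partner, and 12 on the right, 6 on each kind of diagonal.

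Before any tamoxifen, the construct lines already differed from the parental line in some antisense rows. Under vehicle 19 rows passed in the neutral line (7 higher, 12 lower), against 9.74% of all tested genes (4.02% higher, 5.72% lower). In the repressive line 16 passed (4 higher, 12 lower), against 10.8% (5.8% higher, 5.04% lower), and in the activating line 11 (0 higher, 11 lower), against 8.08% (4.24% higher, 3.84% lower). CERS6-AS1 had 4887, 4407, 4589 and 4228 normalized counts in the parental vehicle libraries, above the 2483 to 3265 in the vehicle libraries of the other 3 lines, where it fell by 0.70 ± 0.08, 0.75 ± 0.09 and 0.68 ± 0.09 in the neutral, repressive and activating line (adjusted p of 6.29e-07, 2.43e-06 and 0.000112). In the same order of lines, MME-AS1 fell by 0.59 ± 0.11, 0.85 ± 0.12 and 0.74 ± 0.12 against parental (adjusted p of 0.00103, 3.4e-05 and 0.000811). ACTA2-AS1 fell by 1.75 ± 0.24, 1.06 ± 0.21 and 0.78 ± 0.22 (adjusted p of 1.03e-05, 0.00193 and 0.0351). The 3 comparisons share the parental libraries. The activating count was 24 in a fit over all 32 libraries, 2 with the replicate number as a block, and 3 to 17 when 1 library was left out (3 without parental vehicle replicate 3), and the ACTA2-AS1 call in that line was lost in several of these.

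None of the 116 partners is among the 105 androgen response genes listed for this comparison. IDI2-AS1 was the 1 antisense row whose exons face a gene of the list, with 643 bases opposite IDI1, an enzyme of isoprenoid synthesis, and 93 opposite IDI2; it was chosen after its values were seen. With the activating MACC it had 132, 112, 152 and 134 under vehicle and 202, 219, 265 and 245 under tamoxifen, a rise of 0.94 ± 0.13 (adjusted p = 2.56e-06). In the repressive line it had 149 to 181 and 142 to 162, a difference of -0.15 ± 0.12 that did not pass (adjusted p = 0.427).

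RefSeq promoters on GRCh38.p14, from 250 bases before to 50 after each gene's start, could be matched for 81 antisense genes and 97 partners. The full palindrome of the ARE, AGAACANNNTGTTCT, was in 0 of both and in 1 of all 35116 promoters. An exact match is so rare in this window that 0 could hardly have come out otherwise. It thus does not show whether these genes have AREs. Variants of the palindrome were not searched, nor were introns or intergenic regions, where the paper found most MACC peaks. Its 6-letter arm AGAACA, searched on both strands, was in 9.88% of the antisense and 8.25% of the partner promoters, and in 14.8% of all promoters. Among antisense promoters it was in 1 of 18 rows called higher in the activating line, 1 of 22 called lower and 6 of 41 not called. For the repressive line the counts were 0 of 9, 1 of 7 and 7 of 65. A match is a description of letters in this window.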

How the data were processed

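RNA-seq libraries of 4 LNCaP lines under 2 treatments (8 groups of 4) were prepared with a stranded mRNA kit and sequenced by the authors. Per the methods, reads were processed with nf-core/rnaseq 3.10 under Nextflow 22.10.4 and counted with Salmon 1.9.0 on GRCh37. The annotation release and strand setting are not given in the sources used here. The deposited values are estimated counts per gene, not normalized, and were rounded to whole numbers before testing. Where nothing says which cultures were separate, p-values measure only the spread between these libraries.

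Libraries were grouped by the labels. Tamoxifen was compared with vehicle in each line, and construct lines with parental under vehicle, each fit on the 8 libraries concerned; responses were compared in 1 model of the 16 libraries of 2 lines. Genes passing edgeR's filterByExpr over the 8 groups (3985 of 57773) were tested with edgeR 4.0.16 (quasi-likelihood F test, TMM scaling, Benjamini-Hochberg adjusted p under 0.05) in R 4.3.3; SEs are |log2 fold change| over the root of the F statistic. Alternatives were DESeq2 1.42.0, RLE scaling, other filters, 1 fit of all libraries, a replicate block and leaving out each library. On simulated counts for the activating comparison (3985 genes, 200 of them changed), edgeR recovered 94 of 100 genes changed 4-fold and 55 of 100 changed 2-fold. It also called 7 unchanged genes. DESeq2 recovered 89 and 48 and called 3 unchanged genes. The simulated spread came from vehicle libraries only. In the data 44.8% of tested genes were called, so the simulation does not cover a change that wide. Exon overlaps came from GENCODE lifted to GRCh37, which held 96.1% of genes. Members and lists were chosen with earlier results of these data known. Named genes were A1BG-AS1, the 6 rows with the highest mean, the rows just inside and outside the minimum, up to 8 rows per line and direction with the largest called changes and no overlap between treatments, and rows called in opposite directions in the activating and repressive line, with their partners; other names complete a small count and were chosen after their values were seen. Counting intervals cover counting error only, and library totals of 454982 to 1164808 limit what low rows can show.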

Additional observations from a re-analysis of the deposited data

Results flagged for a closer look

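Single libraries stood apart from the other 3 of their group in 8 of 132 groups examined by Dixon's 95% gap criterion, which chance meets in about 1 group in 20. In normalized counts these were LGALS8-AS1 in neutral tamoxifen replicate 4 at 92.9 (the others 118 to 123), VIM-AS1 in repressive tamoxifen replicate 4 at 27.1 (11.6 to 12.2), VIPR1-AS1 in repressive tamoxifen replicate 3 at 6.11 (13.9 to 15.4) and NOP14-AS1 in repressive vehicle replicate 1 at 111 (86.1 to 90.3). In the activating line under tamoxifen they were PTPRG-AS1 in replicate 3 at 437 (295 to 318), P4HA2-AS1 in replicate 1 at 169 (116 to 122) and ZBED3-AS1 in replicate 4 at 46.8 (66.1 to 68.0). The library total of neutral tamoxifen replicate 1, 1164808 counts, was the eighth. The VIM-AS1 call in the repressive line was lost without its outlying library.

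Responses to tamoxifen differed between lines, by edgeR's test of the difference, for these named rows. Those listed for the activating and repressive lines were chosen by opposite calls in the same libraries. Their differences are thus a description and no separate support. Activating minus repressive (log2), CERS6-AS1 differed by 2.11, TAB3-AS2 by 1.70 and PITRM1-AS1 by 0.845, and LGALS8-AS1 by -2.81, SLC7A11-AS1 by -2.57, ST7-AS1 by -1.95, SH3BP5-AS1 by -1.78, CBR3-AS1 by -1.53, FAM13A-AS1 by -1.41 and KDM4A-AS1 by -1.16. Repressive minus neutral, VIM-AS1 differed by 2.13, FAM13A-AS1 by 1.06, ST7-AS1 by 0.95, LGALS8-AS1 by 0.812 and SH3BP5-AS1 by 0.594, and ACTA2-AS1 by -1.28 and LIMD1-AS1 by -0.604.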

How the results depend on the processing

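Counts of antisense rows called moved as follows. The parental tamoxifen count of 0 became 1 without the filter on low counts and 1 with the replicate number as a block. The repressive count of 24 became 14 under DESeq2 and 14 without the filter. In these settings the activating count of 62 became 49 and 51, and the neutral count of 10 became 7 and 7. Against parental under vehicle, the block gave 10 for the neutral (from 19), 26 for the repressive (from 16) and 2 for the activating line (from 11), and 1 fit of all 32 libraries gave 24 for the activating line. The cause was not tested. Leaving out 1 library gave 0 to 0 for parental, 6 to 14 for neutral, 17 to 24 for repressive and 55 to 60 for activating tamoxifen comparisons. It gave 10 to 28, 10 to 17 and 3 to 17 for neutral, repressive and activating against parental, and 40 to 47, 4 to 7 and 44 to 50 for activating against neutral, repressive against neutral and activating against repressive responses. The lowest neutral count of 6 came without vehicle replicate 4, the highest of 14 without tamoxifen replicate 4, and the highest neutral against parental count of 28 without parental vehicle replicate 1. Same-numbered libraries correlated at -0.0261 to 0.249 and no line had every pair over 0.1, so the numbers were not taken as pairs; the block gave 11, 32 and 69 calls in the neutral, repressive and activating tamoxifen comparisons. No result reversed under the alternatives run. Of 190 single-gene results, 32 lost their call under DESeq2, 34 without the filter, 14 under the block and 2 in 1 fit of all libraries. Of the coding partners, 77 of 116 were too low to test, while all 120 antisense rows were tested; the cause was not tested.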

Other observations

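Among rows named by other classes of noncoding transcript, few reached the same mean of 10 counts. It was reached by 13.7% of the 878 antisense names, by 1 of 133 sense-intronic names (-IT), by 0 of 6 sense-overlapping names (-OT) and by 10 of 625 names beginning with LINC, and by 5.29% of all genes. Of the antisense rows under the minimum, 26 passed the filter and were tested. With the activating MACC, 4 of these were called higher and 5 lower by edgeR, where 44.8% of all tested genes were called (22% higher, 22.8% lower), with NAV2-AS1 at 5.13 (log2, adjusted p = 5.69e-09) and RGMB-AS1 at -4.19 (adjusted p = 0.00014) as the extremes. RGMB-AS1 was called higher in the repressive line, at 1.23 (adjusted p = 0.0121).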
